A study of Mus musculus with 16 samples.

Results

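The mice described here were 50 days old, an age at which carriers of the mutant profilin 1 transgene do not yet show motor disease, and their spinal cords were compared with those of mice of the same age that carry the wild-type human protein. Membership followed the group labels, which gave 3 mutant young mice (MY1 to MY3) and 3 wild-type young mice (WY1 to WY3), 6 of the 16 mice in the series. RNA from whole spinal cord was made into libraries with the Illumina TruSeq Stranded mRNA kit and sequenced on a NextSeq 500. The values are log2(1 + FPKM) for 18167 genes, where FPKM is the number of fragments scaled to transcript length and to the mapped fragments of the library, after the authors' adjustment for sequencing batch.

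The labels give all 16 mice as male. On a C57BL/6N background the MY mice carry the transgene Tg(Prnp-PFN1*G118V)838Kiaei, human PFN1 with the G118V substitution, and the WY mice carry Tg(Prnp-PFN1)850Kiaei, human PFN1 without it. All 6 young mice were in batch 1. The older mice, used here only to show what became of the same genes, were 5 end-stage mutant mice (MO, 175 to 245 days) and 5 wild-type mice (WO, 190 to 294 days), each group with 3 mice in batch 1 and 2 in batch 2. Both transgenes were built in a vector that carries the promoter and untranslated sequence of the mouse prion protein gene, so reads from that sequence in the transgene and reads from endogenous Prnp cannot be told apart. Each genotype is 1 transgenic line, so the substitution, the insertion site and the copy number of the transgene cannot be told apart, and no group without a transgene was sequenced. Human PFN1 itself has no value in the table. The table holds no read counts, so it does not give the depth behind each value.

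The labels were checked against marker genes. Hox genes of the cord were expressed, with Hoxb8 between 5.68 and 5.95 on the log2 scale in the 6 mice, and the forebrain genes Tbr1 and Emx1 were at or under 0.20, while Neurod6, the most abundant of the forebrain list, lay between 1.40 and 1.67. The Y-linked gene Ddx3y lay between 4.25 and 4.41 and Xist, which is expressed from an inactive X chromosome, between 0.23 and 0.25, as in male tissue. Among the old mice MO5 went against its label, with Xist at 3.21 and Ddx3y at 1.95.

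Profilin is a small protein that binds actin monomers and delivers them to growing filaments, often with formins, and it also binds phosphoinositides and proline-rich proteins. Substitutions in profilin 1 cause a familial form of amyotrophic lateral sclerosis (ALS), a disease in which motor neurons of the spinal cord and brain are lost. The comparison at 50 days asks which transcripts already differ before mice of the mutant line become ill.

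At 50 days 1 of 18167 genes passed the test, and it was Prnp, the gene whose regulatory sequence drives both transgenes. Prnp encodes the prion protein, a membrane glycoprotein abundant in neurons. Its log2 values were 10.57, 10.61 and 10.54 in MY1 to MY3 and 8.64, 8.59 and 8.67 in WY1 to WY3. Every MY mouse lay well above every WY mouse, and mice of 1 group differed from each other by less than 0.10. Prnp rose by 1.94 (95% interval 1.84 to 2.04) on the log2 scale, 3.84-fold on the scale of 1 + FPKM, with FDR = 7.27e-05 in limma, and it was called in each of the 17 other settings run. The interval lies far above the 1.5-fold used as the smallest change to call, and 1 gene is 0.00550% of those tested. The other genes of the prion family, Prnd and Sprn, differed by 0.03 (−0.10 to 0.16) and −0.06 (−0.20 to 0.07). Reads were aligned to the mouse genome, and whether reads of human PFN1 fell on mouse Pfn1 was not tested. Mouse Pfn1 read 6.63, 6.67 and 6.69 in the MY mice and 6.96, 6.58 and 6.76 in the WY mice, so that the MY values lay inside the WY range. Its difference was −0.10 (−0.33 to 0.12), and that of Pfn2, the neuronal profilin, was −0.04 (−0.13 to 0.05). The Prnp difference was present in the old mice as well, where the 5 MO values were 10.94, 11.07, 10.53, 10.55 and 10.70 and the 5 WO values 8.55, 8.52, 8.59, 8.82 and 8.81. MO minus WO was 2.10, or 2.30 in batch 1 and 1.81 in batch 2, and its difference from the young value had FDR = 0.534 in limma.

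For the remaining genes the comparison is most informative as a set of bounds. The 95% interval of MY minus WY lay inside 1.5-fold in either direction for 17386 genes, 95.7% of the table, and the median interval reached 0.16 to each side on the log2 scale. This share depends on the 1 added to FPKM, and with a pseudocount of 0.1 it was 77.5%. The other 781 genes include the 67 whose difference was 1.5-fold or more (34 higher and 33 lower in MY), and 35 of those 67 are microRNAs, small nucleolar RNAs or small Cajal body RNAs. At an unadjusted P below 0.05 there were 473 genes higher in MY (2.60% of the table) and 828 lower (4.56%). The 3 values of one group all exceeded the 3 of the other for 1117 genes higher in MY (6.15%) and 1366 lower (7.52%). These counts moved with single libraries: the total at an unadjusted P below 0.05 was 1301 with 6 mice, 769 without MY1, 811 without MY3 and 3001 without WY2. Those higher numbered 271 without MY1, 313 without MY2, 288 without MY3, 728 without WY1 and 1193 without WY2, and those lower 498 without MY1, 523 without MY3 and 1808 without WY2. Beside Prnp, the genes called were Mir8103 without MY1, Mir219a-2 and Mir8094 without MY2, Gabra2, Gm5643, Mir6357 and Nnt without WY1, Snora68 and Wdfy1 without WY2, and Gm15446, Mir3074-1 and Snord32a without WY3.

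WY1 stood apart from the other 5 young mice, and this is given before the gene groups because several of them move with it. Its distance to the others over all genes was 36.0 to 40.9, against 23.5 to 31.2 among the other 5. The median SD of a gene was 0.0508 in MY, 0.0939 in WY and 0.0573 in WY2 and WY3 alone. Across 17419 genes the deviation of WY1 from the mean of the 6 mice had a Spearman rho of −0.415 with transcript length and 0.255 with GC content, and across the same genes rho with length was 0.318, 0.123 and 0.224 in MY1 to MY3, 0.364 in WY2 and −0.159 in WY3. Genes are not independent replicates, so these are descriptions. Long transcripts were thus low and short ones high in WY1. Without WY1, 728 genes were higher in MY (4.01%) and 855 lower (4.71%) at an unadjusted P below 0.05, and 870 of the 1301 genes of the 6-mouse set, 66.9%, were among them in the same direction. In the gene groups below, members are counted as higher or lower in MY at an unadjusted P below 0.05, counts are given also without WY1 where leaving it out moved them by more than 1 gene or ended a direction, and the part of library composition in the results was not tested.

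Gabra2, Nptx2 and Sel1l were among the genes next in rank after Prnp with higher values in MY. Gabra2 encodes the α2 subunit of the GABA-A receptor, through which inhibitory neurons act. Its values were 5.64, 5.60 and 5.48 in MY and 4.13, 4.48 and 4.39 in WY. The groups did not overlap, and the lowest MY mouse was about 1 log2 unit above the highest WY mouse. The difference was 1.24 (1.00 to 1.47) with FDR = 0.0623 in limma, above the threshold of 0.05 with 6 mice. Gabra2 was called when WY1 was left out, with all 16 mice in 1 fit, with a mean of at least 1, with a trended robust prior, with array weights and with the length or GC trend removed. In the old mice MO minus WO was −0.08 (0.08 in batch 1 and −0.33 in batch 2). The difference between the ages had FDR = 0.000267 in limma, which the choice of Gabra2 by MY minus WY partly fixes. Nptx2, a neuronal pentraxin that gathers glutamate receptors at synapses, read 3.18, 3.10 and 3.07 in MY and 2.62, 2.34 and 2.57 in WY, a difference of 0.60 (0.41 to 0.80). Sel1l, a part of the machinery that removes misfolded proteins from the endoplasmic reticulum, read 5.87, 5.82 and 5.88 against 5.05, 5.33 and 5.23, a difference of 0.65 (0.47 to 0.83). In both genes all MY mice were above all WY mice. Sel1l was called with all 16 mice in 1 fit, with array weights and with the length trend removed, and Nptx2 with all 16 mice. Crh, the neuropeptide corticotropin-releasing hormone, read 2.14, 1.57 and 1.84 against 1.17, 0.85 and 0.78, a difference of 0.92 (0.52 to 1.32) with FDR = 0.455 in limma. Pcp4l1 (0.27), the transcription factor Fosl2 (0.35) and Fam107a (0.44), an actin-associated protein, were other genes of this rank that were higher in MY.

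Mmp14, Igfbp2 and Loxl2 had lower values in MY at 50 days and higher values in MO at end stage. Mmp14 encodes a membrane-bound metalloproteinase that cleaves collagen and activates other proteases. Its values were 2.80, 2.81 and 2.82 in MY and 3.28, 3.26 and 3.28 in WY, so that mice within a group were nearly alike and the groups lay apart. The difference was −0.47 (−0.55 to −0.38) with FDR = 0.0623 in limma. At end stage MO minus WO was 0.63 (0.85 in batch 1 and 0.31 in batch 2), and the difference between the ages had FDR = 0.00294 in limma. Igfbp2, a secreted protein that binds insulin-like growth factors, read 3.62, 3.62 and 3.76 against 4.24, 4.17 and 4.34, a difference of −0.58 (−0.74 to −0.43), while MO minus WO was 1.19 (0.95 in batch 1 and 1.56 in batch 2) and the difference between the ages had FDR = 0.000232 in limma. Loxl2, an enzyme that cross-links collagen, read 1.52, 1.47 and 1.47 against 1.80, 1.85 and 1.84, a difference of −0.34 (−0.44 to −0.24), while MO minus WO was 0.50 (0.37 in batch 1 and 0.69 in batch 2) and the difference between the ages had FDR = 0.000313 in limma. For all 3 genes every MY mouse was under every WY mouse, and their choice by MY minus WY partly fixes their differences between the ages. Adamts9, a secreted metalloproteinase (−0.30), and Myoc, the secreted glycoprotein myocilin (−0.55), were lower in MY as well, as were Rasal1 (−0.48), which turns off Ras, and Mblac1 (−0.39), Rwdd3 (−0.39), Ydjc (−0.53) and Gm15446 (−1.42). None of these genes passed FDR 0.05 with 6 mice; Gm15446 did without WY3.

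**Figure D1:**
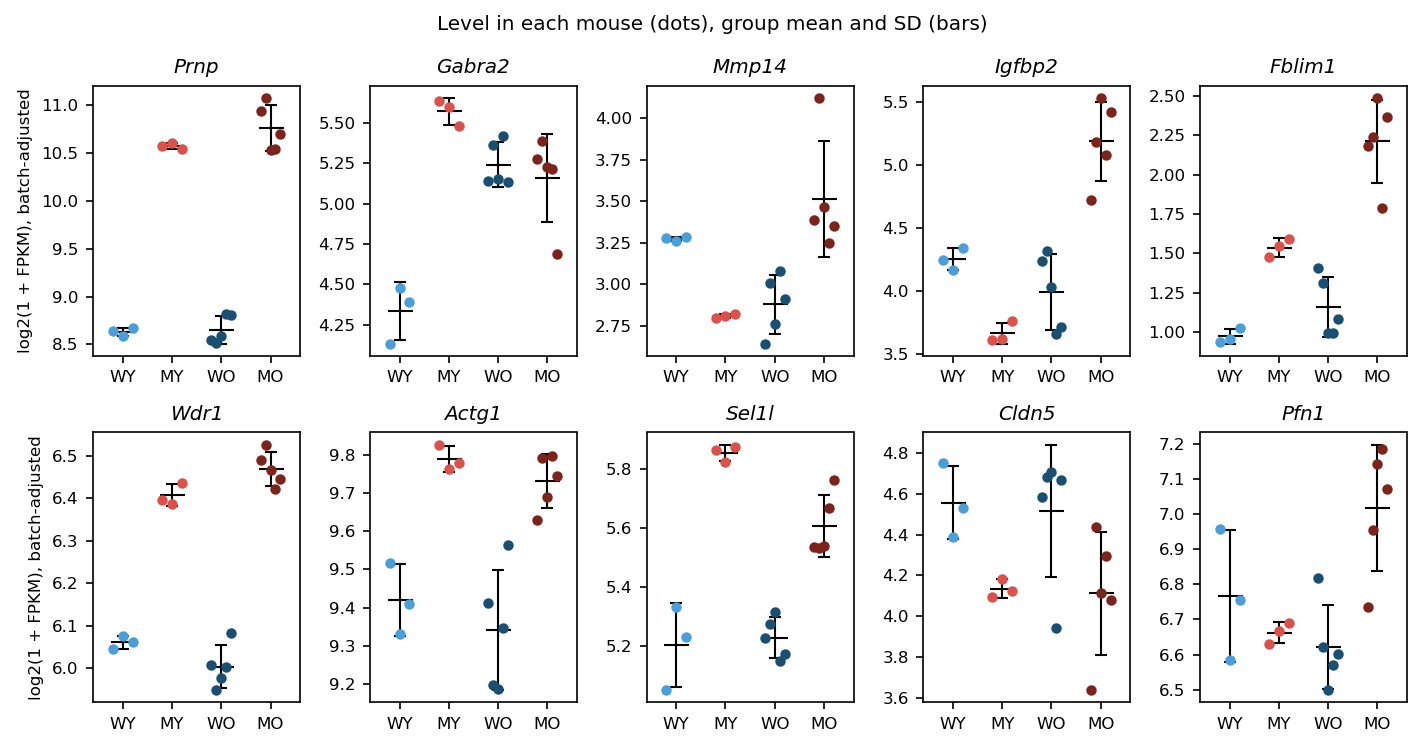
Log2(1 + FPKM) of single genes in each of the 6 young and 10 old mice, 1 point per mouse, with the mean and SD of each group. Prnp is above 10.5 in every MY mouse and under 8.7 in every WY mouse, and Pfn1 overlaps between them.

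Gabra2 stands beside 2 other genes, Nnt and Wdfy1, that were grouped after their values were seen. Nnt, the nicotinamide nucleotide transhydrogenase of the inner mitochondrial membrane, read 3.81, 3.79 and 3.79 in MY and 3.75, 2.89 and 2.77 in WY. The MY mice and WY1 were alike and WY2 and WY3 were about 1 log2 unit lower. Wdfy1 read 4.34, 4.32 and 4.32 in MY and 3.01, 3.85 and 2.94 in WY, with the MY mice alike and WY2 nearest to them. The differences were 0.66 (0.06 to 1.26) and 1.06 (0.49 to 1.63). Nnt was called without WY1 and Wdfy1 without WY2. The difference between the ages had FDR = 0.0147 in limma for Wdfy1 and 0.409 for Nnt, which their choice by MY minus WY partly fixes. As background, Nnt is deleted in part and Gabra2 carries an intronic variant that lowers it in the C57BL/6J substrain but not in C57BL/6N, the substrain that the strain names give. The genetic background of the mice was not tested.

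Actin is what profilin binds, and both cytoplasmic actins and several filament-bound proteins had higher values in MY. In the list of profilins, formins and other actin assembly factors, 5 of 56 genes were higher at an unadjusted P below 0.05 (Actb, Actg1, Fmnl1, Cap1 and Cobl) and 1 was lower (Gsn), with a median difference of −0.00016 against −0.0025 over all genes, of which 2.60% were higher and 4.56% lower. Without WY1 these counts were 9 and 2, against 4.01% and 4.71% of all genes. Actg1, cytoplasmic γ-actin, read 9.83, 9.76 and 9.78 in MY and 9.52, 9.33 and 9.41 in WY, and Actb, β-actin, read 9.33, 9.35 and 9.33 against 9.26, 9.12 and 9.12. All MY mice were above all WY mice for both actins, which share much of their coding sequence. The differences were 0.37 (0.23 to 0.51) for Actg1 and 0.17 (0.05 to 0.29) for Actb. Fmnl1, a formin, differed by 0.14 (0.04 to 0.24), Cap1, which recycles actin monomers, by 0.16 (0.04 to 0.29), and Gsn, the severing protein gelsolin, by −0.23 (−0.35 to −0.10). The most abundant gene of the list was Tmsb4x, thymosin β4, which holds actin monomers, at −0.18 (−0.43 to 0.08).

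A second list of 36 genes for filament-bound proteins and known targets of serum response factor (SRF), a transcription factor controlled by actin monomers through its cofactors, was drawn up after the values were seen. Actb and Actg1 are also in the first list and are counted in both. In the second list 12 genes were higher in MY and 1 lower (Tagln2), the median was 0.08, and without WY1 the counts were 16 and 1 with a median of 0.09. Over all genes 2.60% were higher and 4.56% lower, or 4.01% and 4.71% without WY1. Wdr1, which speeds the disassembly of filaments with cofilin, read 6.40, 6.39 and 6.44 in MY and 6.04, 6.08 and 6.06 in WY, and Fblim1, an adaptor that joins filamin to integrin adhesions, read 1.47, 1.55 and 1.59 against 0.94, 0.95 and 1.03. In each case the MY mice lay above the WY mice with a gap larger than the range within either group. The differences were 0.35 (0.25 to 0.44) with FDR = 0.200 in limma for Wdr1 and 0.56 (0.44 to 0.68) with FDR = 0.0906 for Fblim1. Nexn, which binds filaments at adhesions, differed by 0.48 (0.29 to 0.68), Tgfb1i1, an adhesion protein related to paxillin, by 0.43 (0.21 to 0.65), Flna, filamin A, by 0.32 (0.15 to 0.49), Vcl, vinculin, by 0.22 (0.12 to 0.31), Tpm1, a tropomyosin, by 0.15 (0.06 to 0.24) and Myh9, non-muscle myosin heavy chain, by 0.14 (0.03 to 0.25). Among smooth muscle genes of the list Acta2 differed by −0.06 (−0.70 to 0.58), or 0.14 without WY1, Myl9 by −0.24 (−0.69 to 0.20), Cnn1 by −0.09 (−0.23 to 0.05) and Tagln by 0.18 (−0.02 to 0.38). At end stage 9 of the 36 were called higher in MO, against 4.08% of all genes. MO minus WO was 0.47 for Wdr1 (0.52 in batch 1 and 0.39 in batch 2) and 1.05 for Fblim1 (1.06 and 1.04), and the differences between the ages had FDR = 0.121 and 0.0795 in limma.

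Srf itself was among the higher genes, at 3.21, 3.09 and 3.05 in MY and 2.96, 2.67 and 2.96 in WY, a difference of 0.25 (0.03 to 0.48). Since SRF binds the motif called the CArG box, the promoter windows of the list were searched for it on both strands, although the list was built in part from known targets of SRF, in RefSeq sequence of build GRCm38.p6, in windows of 300 bases that reach from upstream of each gene's start to just past it. Of the 36 genes 29 had a promoter entry and 9 of these held a CArG box, against 488 of 27025 gene symbols, 1.81%. Such a list holds the motif in part by construction, so its share says nothing about MY. Among the 9 genes higher in MY with an entry, 4 held one (Actg1, Vcl, Srf and Fhl2, a LIM-domain cofactor), and among the 20 others 5 did. All 6 stretches of these 4 genes follow, with the CArG box in capitals. They are at chr11:120348566-120348595 (minus strand) for Actg1, chr14:20929161-20929190 (plus) for Vcl, chr17:46556225-46556254 and chr17:46556205-46556234 (minus) for Srf and chr1:43163973-43164002 and chr1:43196838-43196867 (minus) for Fhl2.
Actg1: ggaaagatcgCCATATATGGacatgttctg
Vcl: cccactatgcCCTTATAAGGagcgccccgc
Srf: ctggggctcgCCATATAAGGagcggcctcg
Srf: agcggcctcgCCATAAAAGGaaacattgta
Fhl2: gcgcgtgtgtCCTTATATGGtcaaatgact
Fhl2: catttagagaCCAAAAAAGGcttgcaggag

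Some genes of protein folding in the endoplasmic reticulum had higher values in MY, and none of them was called in the main comparison of MY with WY. Sel1l was called in some of the other settings, as given above. In the list of the unfolded protein and integrated stress responses 8 of 28 genes were higher at an unadjusted P below 0.05 and 0 lower, against 2.60% and 4.56% of all genes, with a median of 0.11. Without WY1 7 were higher and 0 lower, against 4.01% and 4.71%, with a median of 0.09. Hspa5, the main chaperone of the endoplasmic reticulum, read 7.25, 7.16 and 7.40 in MY and 6.91, 7.13 and 6.96 in WY. The groups did not overlap, but MY2 and WY2 were only 0.03 apart. The difference was 0.27 (0.07 to 0.48). The disulfide isomerases Pdia4, Pdia6 and Pdia3 differed by 0.27 (0.12 to 0.41), 0.15 (0.03 to 0.27) and 0.12 (0.01 to 0.23), the lectin chaperone Calr, the most abundant gene of the list, by 0.17 (0.02 to 0.32), the chaperone Hyou1 by 0.23 (0.01 to 0.44) and Ppp1r15a, which restores translation after stress, by 0.14 (0.02 to 0.27). Sel1l, given above, was the eighth. It also lies in a run of 4 neighbouring genes on chromosome 12 that were all higher in MY, described below. In old mice 0 of the 28 were called in either direction and their median was 0.03. The summed level of the list was 1339, 1277 and 1377 FPKM in MY and 1196, 1256 and 1182 in WY.

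The element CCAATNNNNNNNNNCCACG is the one through which ATF6 acts on chaperone genes, and it was searched for in the same RefSeq windows on both strands. It was found for 8 of the 25 list members with an entry and for 37 of 27025 symbols, 0.137%. The list is made of genes of the response in which the element is known to act, so this share says nothing about MY. Of the 7 members higher in MY with an entry 3 held it, against 5 of the 18 others, and the stretches of the 3 follow with the element in capitals, at chr2:34772015-34772053 (plus strand) for Hspa5, chr12:17266481-17266519 (plus) for Pdia6 and chr8:84847065-84847103 (minus) for Calr, where the element reads on the opposite strand.
Hspa5: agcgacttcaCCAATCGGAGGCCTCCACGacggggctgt
Pdia6: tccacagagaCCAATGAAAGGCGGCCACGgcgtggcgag
Calr: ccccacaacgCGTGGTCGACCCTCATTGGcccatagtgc

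Heat shock proteins and immediate early genes also had members higher in MY and none lower, where 2.60% of all genes were higher and 4.56% lower, or 4.01% and 4.71% without WY1. Among heat shock proteins 3 of 21 were higher and 0 lower, with a median of 0.12 (5 and 0 without WY1, median 0.07). They were Hspa8, the most abundant (0.16, 0.05 to 0.28), Hsph1 (0.19, 0.03 to 0.35) and the inducible Hspa1b, which read 1.86, 1.28 and 1.70 in MY and 1.14, 1.02 and 0.94 in WY and has a near-identical neighbour, Hspa1a. Immediate early genes, which neurons switch on within minutes of firing, had 5 of 16 higher and 0 lower with a median of 0.14, and 8 and 0 with a median of 0.21 without WY1. Fos read 3.73, 3.67 and 3.64 in MY and 3.32, 3.18 and 3.54 in WY, and Egr3 read 1.54, 1.61 and 1.66 against 1.32, 1.14 and 1.28. For both genes all MY mice were above all WY mice. The differences were 0.33 (0.11 to 0.56) for Fos, 0.36 (0.20 to 0.51) for Egr3, 0.24 (0.10 to 0.39) for Arc and 0.31 (0.09 to 0.53) for Fosb. The time of day and the handling of the mice at collection are not in the labels, and their part was not tested. Of clock genes 1 of 16 was higher (Cry2, 0.11), and of glucocorticoid-responsive genes 1 of 13 was higher (Plin4, 0.84) and 1 lower (Zbtb16, −0.28), with 3 and 5 higher without WY1.

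**Figure D2:**
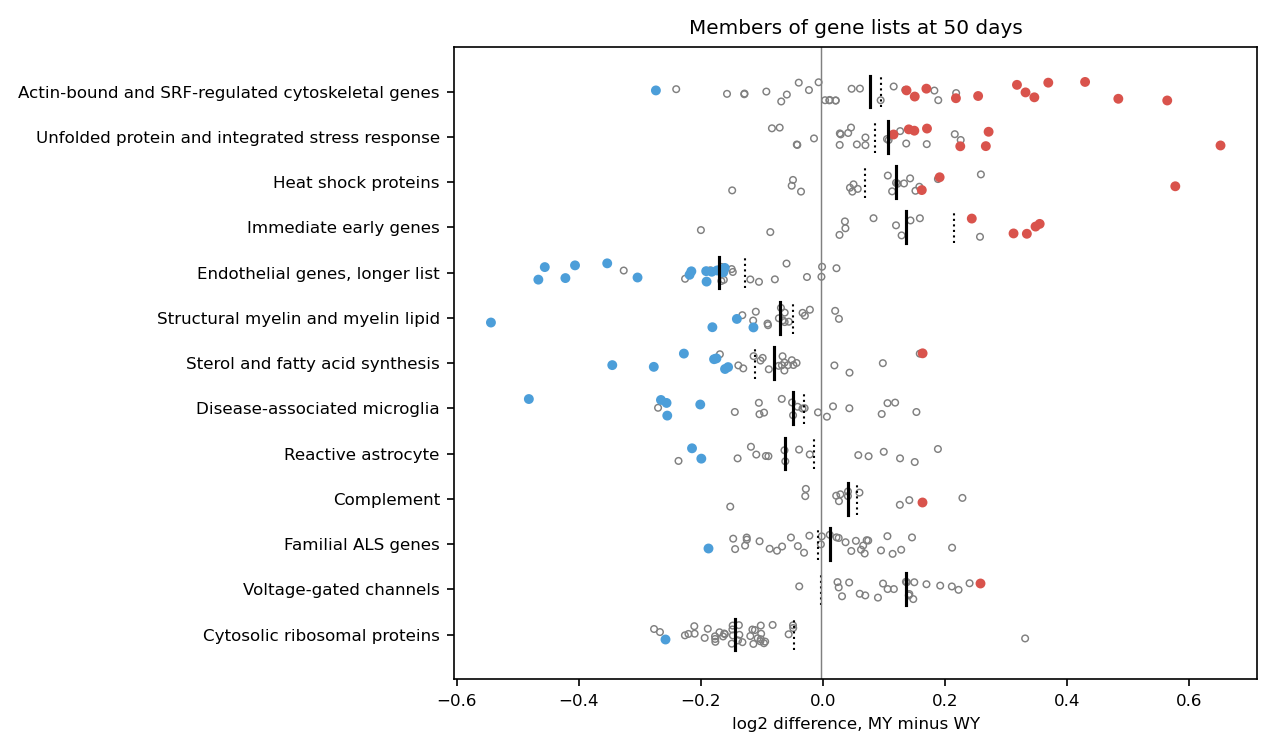
MY minus WY on the log2 scale for each member of selected gene lists, 1 point per gene. Points of the actin-bound, protein folding and immediate early lists lie mostly above 0 and those of the endothelial, myelin and sterol lists mostly below 0, with medians drawn as lines (dotted without WY1).

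Some endothelial genes had lower values in MY, and none of them was called. Of all genes 4.56% were lower, or 4.71% without WY1. In the fixed list 3 of 6 were lower and 0 higher (Cldn5, Pecam1 and Flt1), with a median of −0.18, and 2 and 0 with a median of −0.10 without WY1. In a longer list made after the values were seen 14 of 30 were lower and 0 higher, with a median of −0.17, and 13 and 0 with a median of −0.13 without WY1. Cldn5, the main claudin of the blood-brain barrier, read 4.09, 4.18 and 4.12 in MY and 4.75, 4.39 and 4.53 in WY. Tie1, a receptor of endothelial cells, read 1.71, 1.60 and 1.60 against 2.17, 1.99 and 1.97. In both genes each MY mouse was under each WY mouse, with WY1 the highest. The differences were −0.42 (−0.65 to −0.20) for Cldn5 and −0.41 (−0.58 to −0.24) for Tie1, and −0.22 (−0.36 to −0.07) for the adhesion protein Pecam1 and −0.16 (−0.27 to −0.05) for Cdh5, the cadherin of endothelial junctions. The summed level of the longer list was 384, 386 and 363 FPKM in MY and 486.7, 387 and 402 in WY, with MY2 and WY2 level. Its most abundant gene, the glucose transporter Slc2a1, differed by −0.12 (−0.40 to 0.16), and Kdr and Eng by −0.0015 (−0.20 to 0.19) and −0.0025 (−0.28 to 0.28). In whole cord fewer cells of a type and less RNA per cell cannot be told apart, here or for the other cell types below.

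Some myelin and sterol genes had lower values as well, where 4.56% of all genes were lower, or 4.71% without WY1. Of structural myelin genes 4 of 20 were lower and 0 higher, with a median of −0.07 (2 and 0 without WY1, median −0.05). Opalin, a membrane protein of oligodendrocytes, read 5.86, 5.98 and 6.12 in MY and 6.57, 6.36 and 6.67 in WY, a difference of −0.54 (−0.79 to −0.30) with no overlap. Mog differed by −0.14 (−0.26 to −0.02), Cnp by −0.11 (−0.22 to −0.01) and Aspa, which releases acetate for myelin lipid, by −0.18 (−0.28 to −0.08), while Mbp, the most abundant gene of the list, differed by −0.06 (−0.27 to 0.15). Of sterol and fatty acid synthesis genes 7 of 28 were lower and 1 higher, with a median of −0.08, and without WY1 11 were lower and 0 higher with a median of −0.11. Mvk, mevalonate kinase, read 4.36, 4.35 and 4.24 in MY and 4.72, 4.58 and 4.69 in WY, a difference of −0.35 (−0.49 to −0.21). Every MY mouse was under every WY mouse. Hmgcs1, Fdps, Msmo1, Nsdhl, Mvd and Ebp, all enzymes on the route to cholesterol, differed by −0.28 to −0.16.

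Lists of glial activation, most of whose members were called higher in MO at end stage, are set here beside the shares of all genes. At 50 days these shares were 2.60% higher and 4.56% lower, or 4.01% and 4.71% without WY1. Of genes of disease-associated microglia 0 of 24 were higher and 5 lower (Cd9, Cd63, Ccl6, Fabp5 and Cd52), with a median of −0.05, and 23 of the 24 were called higher in MO. Without WY1 4 were lower and 0 higher. Ccl6, a chemokine of myeloid cells, read 1.47, 1.25 and 1.43 in MY and 1.59, 1.65 and 1.68 in WY, a difference of −0.26 (−0.42 to −0.09), and its difference between the ages had FDR = 0.000113 in limma. All MY mice were under all WY mice. Apoe, the most abundant gene of the list, differed by −0.14 (−0.36 to 0.07) and Trem2, a microglial receptor for lipids, by −0.10 (−0.39 to 0.18). Homeostatic microglial genes had 1 of 12 higher (Olfml3, 0.19) and 1 lower (Fcrls, −0.16), complement had 1 of 13 higher and interferon-stimulated genes had 1 of 25 lower (Rsad2, −0.20). Among inflammasome genes 1 of 12 was higher (Casp8, 0.13) and 2 were lower (Tlr4, −0.13, and Aim2). Aim2, a sensor of cytosolic DNA, read 0.81, 1.03 and 0.86 in MY and 1.61, 1.79 and 1.34 in WY, a difference of −0.67 (−0.97 to −0.38), and its difference between the ages had FDR = 7.12e-05 in limma. Without WY1 the counts were 1 higher and 0 lower for homeostatic microglia, 3 higher and 1 lower for interferon-stimulated genes and 0 higher and 1 lower for inflammasome genes.

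Astrocytes gave a divided result, where 2.60% of all genes were higher and 4.56% lower, or 4.01% and 4.71% without WY1. Of reactive astrocyte genes 2 of 18 were lower and 0 higher: Gfap, the intermediate filament of astrocytes, read 9.81, 9.89 and 9.82 in MY and 10.19, 9.97 and 9.96 in WY, a difference of −0.20 (−0.38 to −0.02), and Cd44 differed by −0.21 (−0.31 to −0.12). Without WY1 the counts were 2 higher and 2 lower. Of genes of astrocyte homeostasis 4 of 15 were higher and 1 lower. The glutamate transporter Slc1a3 (0.11), the gap junction protein Gjb6 (0.17), the glutamine synthetase gene Glul (0.17) and the transcription factor Sox9 (0.21) were higher, and the water channel Aqp4 was lower (−0.26, −0.42 to −0.10).

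The genes that separate end-stage mutant mice from old wild-type mice were followed back to 50 days. In the old mice 742 genes were called higher in MO (4.08%) and 94 lower (0.517%), and these groups share no mice with MY and WY. Of the 742, 29 were higher (3.91%) and 66 lower (8.89%) in MY at an unadjusted P below 0.05, against 2.60% and 4.56% of all genes, and their median MY minus WY was −0.02. Of the 94, 2 were higher (2.13%) and 14 lower (14.9%), with a median of 0.01. Without WY1 the medians were 0.0060 and −0.04, so both changed sign, and the counts were 65 higher (8.76%) and 57 lower (7.68%) of the 742 and 1 higher and 14 lower of the 94, against 4.01% and 4.71% of all genes. Leaving out another single mouse moved these counts as well. Of the 742, between 37 (without MY3) and 108 (without WY2) were then lower, and between 16 (without WY3) and 33 (without WY2) higher. Of the 94, between 7 (without MY3) and 14 (without WY2) were lower. The intervals lay inside 1.5-fold for 94.9% of the 742 and 69.1% of the 94, or 95.1% and 88.3% without WY1. The difference between the ages was called for 673 of the 742 and 50 of the 94, counts that the choice of genes by MO minus WO largely fixes. Prnp was the only one of these 836 genes called at 50 days with 6 mice. Picked without MO5, the sets held 742 and 113 genes, with medians of −0.02 and 0.03 at 50 days. Picked in batch 1 alone they held 735 and 138 genes, with medians of −0.02 and −0.02, so that the sign of the second median turned.

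The 10 end-stage genes with the largest differences were followed singly. Cst7, an inhibitor of cathepsins, differed by 0.15 at 50 days and 4.78 at end stage, the lysozyme gene Lyz2 by 0.10 and 4.64, Gpnmb, a glycoprotein of phagocytes, by 0.02 and 4.39, and Clec7a, a receptor for fungal glucans, by −0.11 and 4.11. Timp1, which inhibits metalloproteinases, differed by 0.10 and 3.67, the leukocyte antigen gene Cd52 by −0.48 and 3.36 and S100a4 by 0.15 and 3.33. In batch 1 the end-stage differences of these 7 genes were 3.10 to 4.81, from Cd52 to Cst7, and in batch 2 3.55 to 4.74, from S100a4 to Cst7. Sprr1a, a gene that injured neurons express as they regrow, read 0.86, 0.89 and 0.87 in MY and 0.49, 0.72 and 0.59 in WY. Here the groups did not overlap, with a difference of 0.27 (0.12 to 0.42), against 4.06 at end stage (4.06 in batch 1 and 4.05 in batch 2). For each of these 8 genes the difference between the ages had an FDR of at most 0.05 in limma, which their choice by MO minus WO largely fixes, and for the small nucleolar RNAs Snord33 and Snord104, which differed by −1.54 and 0.30 at 50 days, it did not (0.159 and 0.215). Of all 18167 genes 1301 were under an unadjusted P of 0.05 at 50 days, and 565 were under it at both ages. Of the 565, 206 went in the same direction (100 higher and 106 lower), 253 were lower at 50 days and higher at end stage, and 106 the reverse. The share of all genes under that P in the old mice is not given here, so these counts do not show sharing or reversal between the ages. The difference between the ages was called for 1020 genes.

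Some genes differed in the same direction at both ages, and those given here were chosen after their values were seen. Crh had a young difference of 0.92 and an old one of 0.59 (0.59 in batch 1 and 0.59 in batch 2), and Nptx2 had 0.60 and 0.51 (0.47 and 0.58). Tgfb1i1 differed by 0.43 and 0.45 (0.45 and 0.46), and the endothelial receptor gene Tie1 by −0.41 and −0.57 (−0.64 and −0.47). Mdga2, a membrane protein that restrains the forming of synapses, read 2.47, 2.52 and 2.40 in MY and 2.71, 2.99 and 2.85 in WY, with no overlap. Its differences were −0.38 (−0.58 to −0.19) and −0.49 (−0.49 in batch 1 and −0.50 in batch 2). For Crh, Nptx2, Tgfb1i1, Tie1 and Mdga2 the difference between the ages had FDR = 0.267, 0.651, 0.942, 0.459 and 0.402 in limma, and each was at an FDR of at most 0.05 in the old mice alone. Their choice by a small P in the same direction at both ages partly fixes both results.

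**Figure D3:**
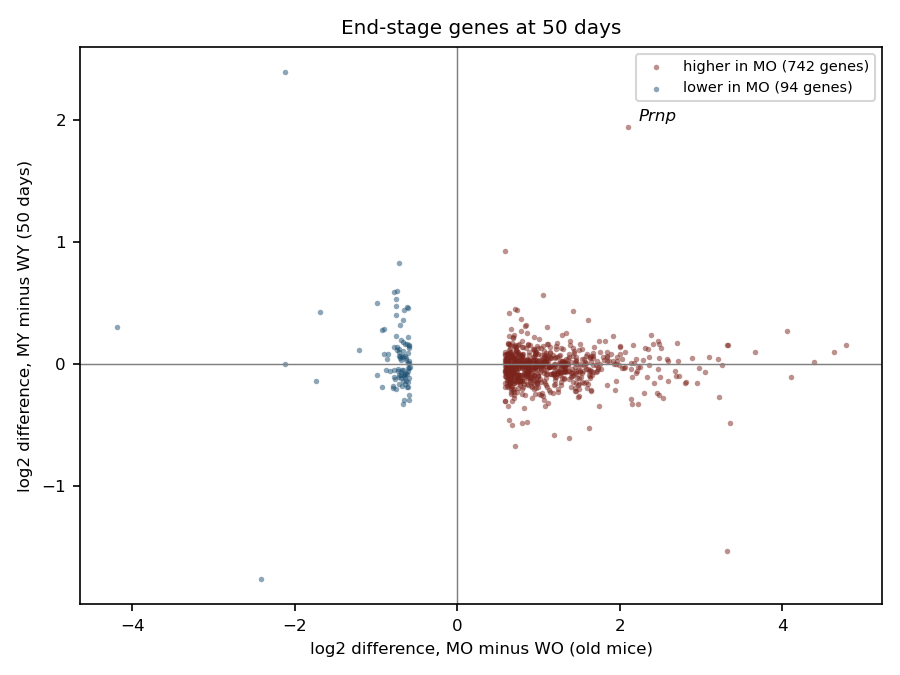
MY minus WY at 50 days (vertical axis, log2) against MO minus WO at end stage (horizontal axis, log2) for the 836 genes called at end stage, 1 point per gene. Among the genes higher at end stage Prnp, at 1.94, is the highest on the vertical axis, and most points lie near 0 on that axis whatever their end-stage value.

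Counts for motor neuron and axon lists stand beside the same shares of all genes, 2.60% higher and 4.56% lower, or 4.01% and 4.71% without WY1. Among genes of cholinergic motor neuron identity 1 of 20 was higher (Calcb, a neuropeptide, 0.18) and 0 lower. Chat, which makes acetylcholine, read 3.69, 3.78 and 3.59 in MY and 3.08, 3.72 and 3.72 in WY, so that WY1 alone was low, and the difference was 0.18 (−0.25 to 0.61). Chodl, of fast motor neurons, differed by −0.14 (−0.32 to 0.04). Of neuronal intermediate filaments 0 of 5 were under an unadjusted P of 0.05: Nefl differed by 0.14 (−0.14 to 0.42) and Nefh by 0.11 (−0.02 to 0.25). For axonal transport the count was 0 of 27, with Klc1, a kinesin light chain and the most abundant, at 0.0044 (−0.09 to 0.10). In the axon injury list 2 of 14 were higher, Sprr1a and Ecel1 (0.14), and 5 without WY1. Of genes of familial ALS 0 of 33 were higher and 1 lower. Sod1, the most abundant of these genes, differed by −0.12 (−0.33 to 0.08).

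Synaptic and channel genes had positive medians with 6 mice that were near 0 without WY1. Their counts stand beside shares of all genes of 2.60% higher and 4.56% lower. The medians were 0.12 for synaptic vesicle genes (1 of 22 higher, Cplx1), 0.11 for glycine, GABA and glutamate transmission (1 of 28, Gabra2) and 0.14 for voltage-gated channels (1 of 23, Cacna1c), and 0 genes of the 3 lists were lower. Without WY1 they were 0.04, −0.0028 and −0.0033. With the length trend removed, the medians with 6 mice were 0.10, 0.085 and 0.084. The reverse held for short, abundant housekeeping transcripts: 0 of 48 oxidative phosphorylation genes were higher and 1 lower (Sdhc), with a median of −0.11 that was −0.06 without WY1, and 0 of 40 ribosomal protein genes were higher and 1 lower (Rplp2), with a median of −0.14 that was −0.05 without WY1. With the length trend removed, the medians with 6 mice were −0.05 for oxidative phosphorylation and −0.07 for ribosomal protein genes. The summed level of the ribosomal list was 14583, 16080 and 15572 FPKM in MY and 19405, 14648 and 17590 in WY, highest in WY1. Its most abundant gene, Rpl38, differed by −0.14 (−0.48 to 0.20).

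The remaining pathways and cell types had at most 2 members in either direction with 6 mice. Over all genes 2.60% were higher and 4.56% lower, or 4.01% and 4.71% without WY1. Counts were 0 higher and 2 lower of 31 for the proteasome (Psma7 and Psmd13), 0 of 29 for autophagy, 2 higher of 18 for NRF2 targets (Srxn1, 0.25, and Nfe2l2, 0.12), 0 higher and 1 lower of 15 for p53 targets (Cdkn2b, −0.31) and 0 higher and 2 lower of 28 for Hox genes (Hoxa9 and Hoxc9). Oligodendrocyte precursor genes had 1 of 14 higher (Cspg4, 0.14) and 2 lower (Nkx2-2, −0.16, and Bmp4, −0.24), and dorsal horn neuropeptides 0 of 14. Without WY1 there were 3 higher for dorsal horn neuropeptides, 0 in either direction for the proteasome, 1 higher and 0 lower for oligodendrocyte precursors, 1 higher and 2 lower for p53 targets, 1 higher and 2 lower for Hox genes, 2 higher and 1 lower for NRF2 targets and 1 higher for neutrophils. The counts were 0 for blood cells (of 4 measured), Schwann cells (of 5), sensory neurons (of 6), skeletal muscle (of 8), ependyma (of 4) and forebrain neurons (of 4), while 1 of 6 meningeal fibroblast genes was higher (Col1a2, 0.13) and 1 of 5 sex-linked genes (Kdm5d, 0.20). In the list of sensory neurons Trpv1 was at or under 0.05 in all 6 mice and P2rx3, the most abundant, between 0.77 and 1.01. Neutrophil genes had 2 of 5 higher: S100a8 read 2.23, 0.90 and 1.11 in MY and 0.06, 0.68 and 0.69 in WY, and S100a9, the most abundant, differed by 0.34 (0.07 to 0.62). The summed level of these 5 genes was 6.02, 3.01 and 2.81 FPKM in MY and 1.36, 2.16 and 1.66 in WY, with Mpo at or under 0.12 in every mouse, and their part in other results was not tested.

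Marker genes that the study took as mouse orthologues of a published human list, and genes that it assayed, were also counted. The counts stand beside shares of all genes of 2.60% higher and 4.56% lower. Its astrocyte markers had 5 of 60 higher and 9 lower, its neuron markers 4 of 71 higher and 0 lower (Rgs4, Scg2, Syt4 and Vgf), its oligodendrocyte markers 1 of 35 higher and 1 lower, and its microglia and motor neuron markers 0 of 5 each. The 12 genes assayed by qRT-PCR in the study are not independent of these libraries, and the assay's own values are not in the table. In the sequencing values 1 of the 12 was higher (Prnp) and 3 were lower (Ccl6, Hmgcs1 and Opalin).

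Neighbouring genes that differed together were looked for along the chromosomes, among 12886 placed genes with a mean of at least 1, and the runs named were chosen after their values were seen. There were 3 runs of 3 or more adjacent genes on the same side at an unadjusted P below 0.05. The run higher in MY held 4 genes at chr12:90998492-91849157 (GRCm38): Cep128, a centriole protein, Gtf2a1, a general transcription factor, Ston2, an endocytic adaptor of synaptic vesicles, and Sel1l. Ston2 read 2.79, 2.69 and 2.71 in MY and 2.06, 2.43 and 2.22 in WY, and Gtf2a1 read 4.02, 3.88 and 3.86 against 3.76, 3.62 and 3.59. All MY mice were above all WY mice for the 4 genes, and all MO mice above all WO mice. The young differences were 0.29 for Cep128, 0.26 for Gtf2a1, 0.49 for Ston2 and 0.65 for Sel1l, and the old ones 0.43 (0.50 in batch 1 and 0.31 in batch 2), 0.55 (0.54 and 0.57), 0.44 (0.40 and 0.50) and 0.38 (0.26 and 0.55). The difference between the ages had FDR = 0.0104 in limma for Gtf2a1 and 0.292, 0.833 and 0.0607 for Cep128, Ston2 and Sel1l. The choice of the run by MY minus WY partly fixes these results. Tshr, the thyrotropin receptor, lies in the same stretch with a mean under 1 and differed by 0.24 (0.10 to 0.38). The 16 neighbouring genes differed by −0.15 to 0.11, and 0 of them were under an unadjusted P of 0.05. Without WY1 all 4 genes of the run were still under it, with differences of 0.27 to 0.57. Whether the run relates to the insertion site or to the line was not tested.

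The longest run, 7 genes lower in MY, lay at chrX:135993824-136215513 and held short transcripts of the Bex and Tceal families, small proteins abundant in neurons, with Arxes1 and Arxes2, a closely related pair. Bex2 read 7.29, 7.32 and 7.32 in MY and 7.72, 7.49 and 7.57 in WY, and Tceal8 read 3.73, 3.83 and 3.77 against 4.05, 3.97 and 4.06. Both were lower in every MY mouse, and WY1 was the highest for Bex2. The 7 differences were −0.37 to −0.16, or −0.24 to −0.12 without WY1, when 4 of the 7 were still under an unadjusted P of 0.05. Nxf3 lies in the same stretch with a mean under 1 and differed by −0.03 (−0.12 to 0.06). Of the 16 neighbouring genes 2, Tceal6 (−0.14) and Tceal1 (−0.18), were lower as well. In old mice the differences of the 7 were −0.15 to 0.28. The third run held 3 genes on chromosome 7, Eps8l2, B230206H07Rik and Taldo1, lower in MY.

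The largest differences whatever the test belonged to microRNAs and small nucleolar RNAs that were either well above their lowest value in batch 1 or at it. Mir219a-2, whose product promotes oligodendrocyte maturation, read 0.78, 4.75 and 0.78 in MY and 5.87, 6.01 and 6.69 in WY. Mir8094 read 0.22, 5.41 and 0.22 against 5.43, 5.17 and 5.35. In both, MY1 and MY3 were at that lowest value and MY2 was nearer to the WY mice, and both genes were called without MY2. Mir3074-1 read 6.31, 5.49 and 5.62 in MY and 0.88, 0.88 and 5.38 in WY, and Mir6357 read 6.14, 5.55 and 6.05 against 5.79, 0.53 and 0.53. Snord32a read 5.56, 6.52 and 5.76 against 0.77, 0.77 and 5.52, and Snora44 read 3.49, 0.38 and 0.38 against 4.66, 3.43 and 4.82. Of the genes higher in MY, Mir3074-1, Mir6357 and Snord32a each had 1 WY mouse near the MY mice and 2 at the lowest value. Mir3074-1 and Snord32a were called without WY3 and Mir6357 without WY1, while with 6 mice none was called. The library kit selects polyadenylated RNA, and these values refer to the precursor genes, not to the mature RNAs. The mature sequences from RefSeq (GRCm38.p6) follow for the 3 microRNAs with an entry, with the seed, bases 2 to 8, in capitals, at chr2:29845689-29845709 (minus strand), chr13:63301249-63301270 (minus) and chr17:35251314-35251334 (plus). The 3 seeds differ.
mmu-miR-219a-5p: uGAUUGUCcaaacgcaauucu
mmu-miR-3074-5p: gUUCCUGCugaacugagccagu
mmu-miR-8094: aACUGAAGgacaacgagaaga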

How the data were processed

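The deposited table holds log2(1 + FPKM) values that the authors made by trimming reads (Trimmomatic), aligning them to mm10 (TopHat), estimating FPKM (Cufflinks), removing genes with FPKM of 0 in at least 8 of 16 mice and adjusting for batch (ComBat). Within batch 1 that adjustment shifts and scales each gene alike for all 6 young mice. MY was compared with WY in limma 3.58.1 (R 4.3.3), over all 18167 genes. A gene was called at an FDR of at most 0.05 and a difference of at least 1.5-fold. MO was compared with WO likewise, and the difference between the ages was tested in 1 fit of 16 mice. Tables and figures were made in Python 3.11.15 with NumPy, pandas and matplotlib. Positions are from GENCODE M21 (GRCm38), and promoters and microRNAs from RefSeq (GRCm38.p6). The steps were tested on simulated data.

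Members and gene lists were chosen with earlier results of these data known. The genes named by rule are the called genes, the 10 in each direction with the smallest P among genes with a mean of at least 1 whose groups do not overlap, the 3 in each direction with the largest difference, the prion and profilin genes, the genes assayed by qRT-PCR, the inflammasome list, the member of each list with the smallest P, the most abundant and those that define a cell type, and the 10 end-stage genes with the largest difference. Other genes were named after their values were seen. The actin-bound list, the longer endothelial list and the group of Gabra2, Nnt and Wdfy1 were added after the values were seen, as were removal of length and GC trends, lists without WY1 and end-stage genes picked without MO5. Other alternatives were all 16 mice in 1 fit, a mean of at least 1, a pseudocount of 0.1, quantile normalization, a trended robust prior, array weights, a replicate block, no small RNAs, a test against 1.2-fold and leaving out each mouse.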

Additional observations from a re-analysis of the deposited data

Results flagged for a closer look

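A mouse lay far from the other 4 of its old group in 7 of 72 groups looked at, for 36 genes whose old values the text uses. Over all 325 named genes this held for 38 of 650 groups, 5.85%. About 1 in 20 groups pass by chance, and groups of 3, which include MY and WY, were not examined. Among the 36 genes the mice were MO5 for Gabra2 (4.69), MO2 for Mmp14 (4.12), WO4 for Cldn5 (3.94), MO1 for Snord33 (0.44) and MO2 for Snord104 (6.58). MO5 also lay apart for Xist (3.21) and for Ddx3y (1.95), although its label is male.

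The genotype difference was not the same at the 2 ages, by the test of the difference itself at an FDR of at most 0.05 in limma, for 17 of the 36 genes and for 3210 of all 18167. MO minus WO less MY minus WY was −1.32 for Gabra2, 1.10 for Mmp14, 1.78 for Igfbp2, 0.84 for Loxl2, 0.29 for Gtf2a1, −0.93 for Wdfy1, 1.39 for Aim2, 2.74 for Ccl6 and 0.50 for Pfn1. Gabra2, Mmp14, Igfbp2 and Loxl2 were chosen by a small P in MY minus WY, which partly fixes this difference. Gtf2a1 and Wdfy1 were named after their MY minus WY values were seen, which partly fixes it for them as well. Among genes chosen for their large MO minus WO, a choice that largely fixes this difference, it was 3.79 for Sprr1a, 3.85 for Cd52, 4.21 for Clec7a, 4.63 for Cst7, 4.54 for Lyz2, 3.17 for S100a4, 3.57 for Timp1 and 4.37 for Gpnmb. Over all genes tested, 1020 of the 3210 also had a difference between the ages of at least 1.5-fold.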

How the results depend on the processing

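Prnp was called in all 17 alternatives, with log2 differences of 1.92 to 2.01 and FDR of 3.53e-06 to 0.0294 in limma. The number of genes called was 1 with 6 mice, 4 with all 16 mice in 1 fit, 2 with a mean of at least 1, 2 with a trended robust prior, 3 with array weights, 3 with the length trend removed and 2 with the GC trend removed, and 1 to 5 when 1 mouse was left out. Of the 1301 genes at an unadjusted P below 0.05 the count became 2225 with array weights and 769 to 3001 when 1 mouse was left out. Those higher in MY numbered 308 with a mean of at least 1, 911 with array weights and 271 to 1193 with 1 mouse left out, and those lower 544 with 16 mice, 1314 with array weights and 498 to 1808 with 1 mouse left out. The cause was not tested. The share of genes with an interval inside 1.5-fold was 95.7% with 6 mice and 77.5% with a pseudocount of 0.1.

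The median of the 94 genes lower at end stage was −0.040 (without WY1) to 0.022 (without MY3) when 1 mouse was left out, and that of the 742 higher genes −0.035 to 0.0060. The difference between the ages was called for 808 to 1292 genes with 1 young mouse left out and 952 in batch 1. Of 325 named genes 233 kept the sign of MY minus WY in every setting, and 0 called genes reversed.

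With the replicate block 1 gene was called and 965 were under an unadjusted P of 0.05. Mice of the same number were not alike, with correlations across genes of −0.20 to −0.02 against −0.07 to 0.17 for other pairs, and the labels name no pairing.

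With 3 mice a group the median gene's interval reached 0.16 to each side. The table holds no read counts, so intervals of genes near 0 rest on the spread between mice.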
